A study of Mus musculus with 6 samples.

Results

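Most of the genes described here encode enzymes with which mitochondria burn fatty acids and ketone bodies. The others serve activation of fatty acids, their release from coenzyme A or their transport, and not all of these act in mitochondria. The list holds 34 genes and was drawn up from what the enzymes do, not from the signals, although earlier results of these arrays were known when it was drawn up. Each gene was represented by the probe set with exactly 1 gene symbol whose mean log2 signal over the 6 arrays was highest. A total of 32 of the 34 genes had such a probe set, out of 18161 genes named on the array, and all 32 passed the filter on dim signals, as did 12309 genes in all. Cpt1b had 1 probe set, which was listed under several symbols, and Acsl1 had no probe set listed under its name, so neither was measured here.

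RNA came from the striatum of 3 knockout (KO) mice without PGC-1alpha (PGC-1a-/-) and 3 wild-type (WT, PGC-1a+/+) littermates from heterozygous parents, all of them females 6 months old. PGC-1alpha, encoded by Ppargc1a, is a transcriptional coactivator that turns on genes of oxidative metabolism together with nuclear receptors. The labels name no tissue-specific promoter or Cre, so the mice are described only as null, and no strain is given. Each mouse had 1 array, and KO mice were compared with WT mice.

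Fatty acids are first joined to coenzyme A, carried into the mitochondrial matrix as carnitine esters and then shortened by repeated rounds of oxidation, hydration, oxidation and thiolysis. Electrons from the first oxidation reach the respiratory chain through the electron transfer flavoprotein. The brain uses little fatty acid as fuel, most of it in astrocytes, but it can take up ketone bodies made by the liver and split them into acetyl-CoA. In muscle, heart and liver, many of these genes are known targets of PGC-1alpha acting with PPAR-alpha and the estrogen-related receptors.

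Most genes of the pathway read lower in KO striatum, each by a modest amount. Most of the lower genes, like most of the list, encode enzymes of oxidation, electron transfer or ketone use (23 genes, 21 lower, 2 higher). Signs were mixed among the genes that activate fatty acids or carry them in. Of the 32 genes, 27 were lower by sign, against 51.8% of all genes tested. The median KO minus WT difference was -0.18 on the log2 scale, a signal 11.9% lower, beside a median of -0.0068 over all genes. Every KO mouse lay below every WT mouse for 16 genes, and none had the reverse order, where 8.47% of all genes had every KO mouse below every WT mouse. An unadjusted p under 0.05 with a lower KO signal was reached by 13 of the 32, against 5.61% of all genes. After adjustment over all probe sets in limma 2 were called, Acadl and Acot7, both lower, with 0.292% of probe sets called lower and 0.470% called in either direction.

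**Figure D1:**
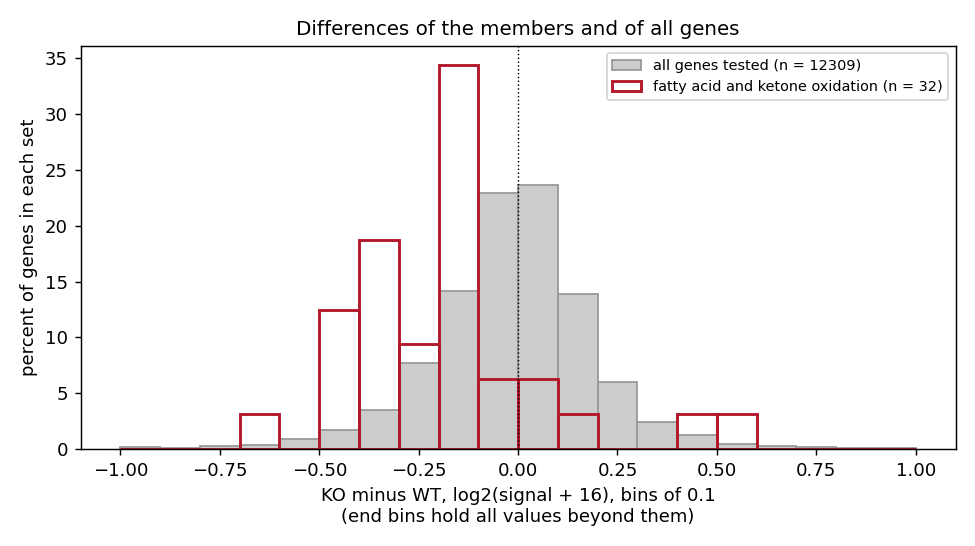
Distribution of the KO minus WT difference on the log2(signal + 16) scale, in bins of 0.1, for the 32 genes of fatty acid and ketone oxidation (red outline) and all 12309 genes tested (grey), each as a percent of its own set. The pathway's genes lie mostly to the left of 0, with 27 of 32 below it.

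The lower level was present in each KO mouse. The median over the 32 genes, relative to the WT mean, was -0.19 in KO 1, -0.21 in KO 2 and -0.18 in KO 3. In WT mice it was 0.03, 0.01 and -0.04. The lowest WT value thus stood well above the highest KO value, although each gene's own scatter was wider. By construction the WT values lie around 0, since each gene was set against its own WT mean, so this gap is not a test. Without KO 3, whose label names cytoplasmic RNA where the other 5 labels name total RNA, 26 of the 32 were lower and the median was -0.22, while limma called none, with 11 at an unadjusted p under 0.05. Of the 32, 16 then had no overlap, in a comparison of 2 against 3 mice where 14.5% of all genes had every KO mouse below every WT mouse.

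**Figure D2:**
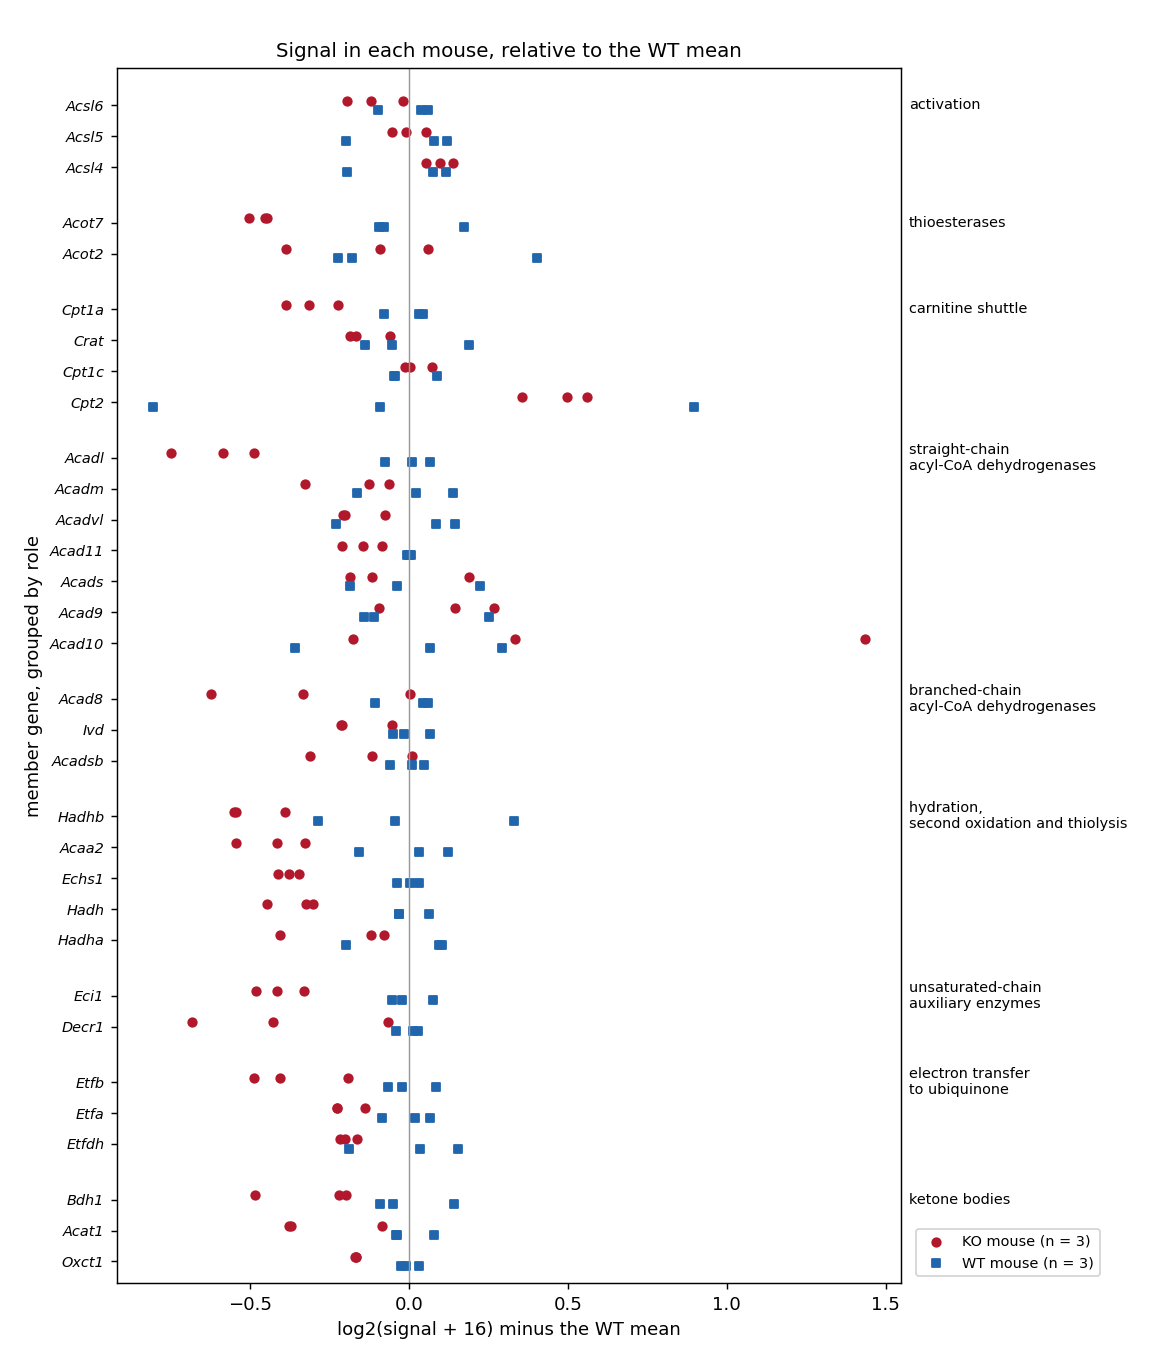
Signal of each of the 32 genes in each mouse, as log2(signal + 16) minus that gene's WT mean, with KO mice as red circles and WT mice as blue squares, 3 each, grouped by role. For 16 genes, among them Acadl, Echs1 and all 3 ketone body genes, the red circles all lie left of the blue squares, while Cpt2, Acad10 and the activation genes overlap.

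The median signal of an array was 43.1 to 45 in KO and 44.6 to 47.3 in WT. Log2 signals correlated at 0.977 to 0.979 among KO arrays, at 0.972 to 0.974 among WT arrays and at 0.972 to 0.976 across genotypes. The GAPDH probe sets at the 3' and 5' ends of the transcript differed by -0.46 to -0.44 (log2, 3' minus 5') in KO and by -0.49 to -0.43 in WT. Those of actin differed by 1.04 to 1.17 in KO and by 1.03 to 1.24 in WT. Ppargc1a was called lower by all 5 of its probe sets, with differences from -1.93 to -1.12 on the log2 scale. Markers of medium spiny neurons, the main striatal cell, were well expressed and 6 of 7 tested read slightly higher in KO (median 0.07, none called, groups overlapping for all 7). Pan-neuron markers had 2 of 4 lower (median -0.0058, none called), with no overlap for Snap25, which was lower, and Rbfox3, which was higher. Astrocyte markers had 3 of 9 lower with a median of 0.02, and their summed signal ran from 17345 to 19275 in KO and from 17766 to 18082 in WT. Among the astrocyte markers, Slc4a4 alone had no overlap and was lower in KO (difference -0.15, SE 0.077, not called). Oligodendrocyte markers read lower, as the pathway did: 5 of 5 tested were lower (median -0.18, none called), with sums of 22886 to 25039 in KO and 23552 to 28543 in WT, which overlapped. Of these markers, Mag alone had every KO mouse below every WT mouse, an order found in 8.47% of all genes. Its difference was -0.43 (SE 0.098, limma adjusted p = 0.11). Endothelial markers had 4 of 5 lower (median -0.07), and Slco1a4, an endothelial transporter, was lower with no overlap. Microglial markers had 3 of 5 lower (median -0.06). Among them Cx3cr1 was higher with no overlap (0.15), and Aif1 gave -0.64 with overlap. Cortical excitatory neuron markers had 2 of 3 lower (median -0.18). Their summed signal was 178, 181 and 529 in KO mice and 406, 318 and 185 in WT mice, highest in KO 3. None of these endothelial, microglial or cortical markers was called. Ttr, a transthyretin gene typical of choroid plexus, was called higher in KO (difference 0.91, SE 0.17, adjusted p = 0.035). Of the other choroid plexus markers, Clic6 gave 0.18 with overlap and was not called, while Folr1 and Kl were too dim to be tested. Leaving out KO 1, KO 3, WT 1 or WT 2 ended the Ttr call, at adjusted p values reaching 0.14 (0.0029 to 0.30 over all alternatives). The part of these cell types in the pathway's difference was not tested. In whole tissue, fewer cells of a type and less RNA per cell cannot be told apart.

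The promoters of these genes were read because PGC-1alpha does not itself recognise a DNA sequence and acts through factors such as the estrogen-related receptors, whose half-site is AAGGTCA. RefSeq promoter windows (GRCm38.p6) were at hand for 28 of the 34 genes. Within the 250 bases before the start, the half-site occurred on either strand for 2 of the 28, Acadm and Acsl6, that is 7.14%, where 4.70% of 27025 genes have it. The longer form TNAAGGTCA, which contains the half-site, was found in Acsl6 alone, and the DR1 element of PPAR receptors, a direct repeat of the 6-base core AGGTCA spaced by 1 base, in none; over all genes these were found in 1.30% and 0.0407%. Neither Acadm nor Acsl6 was among the genes with the largest differences, and Acadl, the most reduced, holds no match, so the windows of these 3 are shown, for Acsl6 that of the start with the match among the 3 starts listed. Capitals mark the half-site, which reads as TGACCTT because it lies on the opposite strand.
Acadm (chr3:153944644-153944893, minus strand, 5′ to 3′): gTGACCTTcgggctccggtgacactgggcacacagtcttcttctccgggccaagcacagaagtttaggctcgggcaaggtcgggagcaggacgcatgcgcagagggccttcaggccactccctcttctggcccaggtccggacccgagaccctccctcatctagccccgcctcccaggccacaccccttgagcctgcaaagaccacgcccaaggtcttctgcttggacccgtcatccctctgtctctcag
Acsl6 (chr11:54303574-54303823, plus strand, 5′ to 3′): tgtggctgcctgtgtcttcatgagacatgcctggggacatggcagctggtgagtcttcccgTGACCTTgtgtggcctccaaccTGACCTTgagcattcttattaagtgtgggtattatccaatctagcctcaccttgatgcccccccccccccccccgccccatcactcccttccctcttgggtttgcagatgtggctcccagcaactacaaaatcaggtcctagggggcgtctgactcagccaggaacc
Acadl (chr1:66863310-66863559, minus strand, 5′ to 3′): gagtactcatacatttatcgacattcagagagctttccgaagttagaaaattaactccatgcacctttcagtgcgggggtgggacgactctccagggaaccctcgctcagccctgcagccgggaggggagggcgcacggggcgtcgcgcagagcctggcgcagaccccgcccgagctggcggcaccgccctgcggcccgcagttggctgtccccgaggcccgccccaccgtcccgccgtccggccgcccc
Counted from the start of transcription, the Acadm match spans bases -249 to -243, and the Acsl6 matches span -189 to -183 and -167 to -161. A match is only a stretch of letters, and its absence from so short a window says nothing about binding elsewhere.

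Activation of fatty acids, the step that joins them to coenzyme A, showed little difference. Acsl5 read 291.5, 304.9 and 282.1 in KO mice and 319.6, 310.2 and 253.8 in WT mice (difference -0.0020, SE 0.11). Acsl6, the synthetase most typical of neurons and linked to docosahexaenoic acid, averaged 836 ± 53 over KO mice against 904 ± 53 over WT mice (SD, n = 3), a difference of -0.11 (SE 0.081). Acsl4, which prefers arachidonic acid, gave 0.10 (SE 0.099), and its other probe sets gave 0.17 and 0.05. In all 3 the groups overlapped, and a second Acsl6 probe set gave 0.05. The median of the 3 genes was -0.0020, but an SE near 0.1 leaves room for a difference as large as the pathway's median.

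The thioesterases, which split acyl-CoA back into fatty acid and coenzyme A, differed from each other in how they read. Acot7, the main acyl-CoA thioesterase of neurons, fell from 2066.5, 1733.4 and 1717.5 in WT mice to 1340.6, 1287.5 and 1335.2 in KO mice. The KO mice lay close together and all below the WT mice, of which WT 1 was highest. The difference was -0.47 (SE 0.081, limma adjusted p = 0.028), a signal 27.7% lower on the log2(signal + 16) scale. Leaving out any 1 array but WT 3 ended the call, at adjusted p values reaching 0.14. So did centring the arrays on their medians (0.060), dropping the filter (0.10) and dropping the intensity trend (0.30), and the adjusted p under every alternative run ranged from 0.020 to 0.30. Of the 40 tested genes nearest to Acot7 on chromosome 4, in gene order, 4 were also called, namely Slc2a5, Vamp3, Rpl22 and Kcnab2, where 0.674% of all genes placed were called; the part of this neighbourhood in the Acot7 difference was not tested. Acot2, the thioesterase of the mitochondrial matrix, overlapped between groups (-0.14, SE 0.20), with 121.2 in WT 3 against 63.4 to 92.1 in the other 5 mice.

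The carnitine shuttle, which carries long chains across the mitochondrial membranes, was mixed in sign. Cpt1a, the carnitine palmitoyltransferase of astrocytes and liver that sets the rate of entry, read 127.9, 119.2 and 112.4 in KO mice and 143.2, 155.9 and 157.3 in WT mice. Its groups did not overlap, but the difference of -0.31 (SE 0.12) did not pass adjustment (adjusted p = 0.45), and a dimmer probe set gave 0.02. Cpt1c, the brain form in the endoplasmic reticulum of neurons, averaged 668 ± 22 over KO mice against 659 ± 37 over WT mice (SD, n = 3), a difference of 0.02 (SE 0.079). Cpt2, which releases the chain on the matrix side, gave 0.47 (SE 0.33), but its WT values of 81.3, 13.9 and 33.1 spanned the KO range of 50.9 to 61. Crat, which handles acetyl and other short chains, gave -0.14 (SE 0.13) with overlap, and -0.41 and -0.20 by its other probe sets, which also overlapped.

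The acyl-CoA dehydrogenases carry out the first oxidation, each on its own range of chain length, and the long-chain enzyme stood out. Acadl, which encodes the long-chain enzyme, fell to 244.4, 201.2 and 227.4 in KO mice from 330.2, 366 and 351.3 in WT mice. The highest KO mouse lay well below the lowest WT mouse, and the difference of -0.61 (SE 0.10, adjusted p = 0.027) was the largest fall among the 32 genes. The signal was 34.3% lower. Leaving out KO 2, KO 3, WT 2 or WT 3 ended the call, at adjusted p values reaching 0.13. So did dropping the filter (0.067) or the intensity trend (0.21), and the adjusted p under every alternative run ranged from 0.023 to 0.21. A second Acadl probe set read only 0.6 to 17.7 and lay below the filter. Of the 40 tested genes around Acadl, 1 was called, Lancl1.

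The other straight-chain dehydrogenases differed less. Acadm, the medium-chain enzyme and a textbook PGC-1alpha and PPAR-alpha target in heart, read 413.8, 477.5 and 499.4 in KO mice and 531.5, 577.3 and 464.8 in WT mice. WT 3 fell within the KO range, and the difference was -0.17 (SE 0.10, adjusted p = 0.68). Acadvl, the very-long-chain enzyme of the inner membrane, gave -0.16 (SE 0.12), with WT 2 below all 3 KO mice. Acads, the short-chain enzyme, gave -0.04 (SE 0.19), and its sign turned with each array centred on its median. Acad11, active on long hydroxylated chains, read 154.2 to 169.8 in KO and 179.9 to 181.7 in WT, with no overlap, yet the difference of -0.15 (SE 0.11) did not pass. Acad9, which also helps to assemble complex I, gave 0.11 (SE 0.14) by its chosen probe set and -0.25 by another, both overlapping. Acad10 gave 0.53 (SE 0.35), which came from 82.9 in KO 3 against 12.5 to 30.1 in the other 5 mice.

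The dehydrogenases of branched chains, which take part in the breakdown of leucine, isoleucine and valine, were lower by sign in all 3. Ivd, isovaleryl-CoA dehydrogenase, read 237.4, 238.3 and 267.2 in KO mice and 274.9, 291.8 and 268 in WT mice. The groups were separated by less than 1 signal unit, between KO 3 and WT 3, and the difference was -0.16 (SE 0.10); a second probe set gave -0.31 with overlap. Acad8, for isobutyryl-CoA, gave -0.32 (SE 0.16), which ran from -0.17 without KO 2 to -0.48 without KO 1 and was -0.07 by a second probe set, and Acadsb, for 2-methylbutyryl-CoA, -0.14 (SE 0.12), both with overlap. None of the 3 passed adjustment (adjusted p from 0.60 to 0.78).

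The enzymes that complete each round, by hydration, second oxidation and thiolysis, had the lowest median among the roles with 3 or more genes. All 5 were lower by sign (median -0.38, a signal 23.1% lower), 4 had no overlap and 4 had an unadjusted p under 0.05, while none of the chosen probe sets passed adjustment in limma. Over all genes, 8.47% had every KO mouse below every WT mouse, and 5.61% were lower at an unadjusted p under 0.05. Per mouse the median of the 5 genes was -0.33, -0.39 and -0.42 in KO and -0.04, 0.06 and 0.0044 in WT. Hadhb, the beta subunit of the trifunctional protein, which holds its thiolase activity, read 602.1, 671.2 and 598.7 in KO mice and 856.5, 722.7 and 1115.9 in WT mice. The WT mice were widely spread, and the difference of -0.49 (SE 0.13) did not pass (adjusted p = 0.18).

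A second Hadhb probe set had less scatter and was called. It fell from 716.1, 712 and 688.8 in WT mice to 471.6, 561.9 and 491.3 in KO mice (difference -0.46, SE 0.087, adjusted p = 0.039). Leaving out any 1 array but KO 2 ended the call, at adjusted p values reaching 0.18. Centring the arrays on their medians (0.098), dropping the filter (0.10) or dropping the intensity trend (0.29) ended it too, and the adjusted p under every alternative run ranged from 0.033 to 0.29. Another, dimmer Hadhb probe set gave -0.14. Hadha, the alpha subunit of the same protein, with hydratase and dehydrogenase activity, read 225, 176.2 and 218.5 in KO mice and 255.9, 257.7 and 205.9 in WT mice, so that WT 3 lay below 2 of the 3 KO mice (difference -0.20, SE 0.13). Both genes start from opposite strands of 1 short intergenic stretch of 272 bases, which is shown because the subunits are made in equal number; it is 60.3% G and C, and it holds no AAGGTCA. Of the 40 tested genes around Hadhb on chromosome 5, which also carries Ppargc1a, none was called by limma.
Hadha and Hadhb, between the starts (GRCm38.p6 chr5:30154981-30155252, plus strand, 5′ to 3′): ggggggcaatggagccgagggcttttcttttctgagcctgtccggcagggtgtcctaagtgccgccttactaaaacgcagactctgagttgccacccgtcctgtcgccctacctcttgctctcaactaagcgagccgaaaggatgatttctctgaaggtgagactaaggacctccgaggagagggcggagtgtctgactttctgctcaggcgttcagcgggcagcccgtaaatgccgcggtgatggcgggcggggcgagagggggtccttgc

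Echs1, the short-chain enoyl-CoA hydratase, was the most even of this group. It read 339.9, 348 and 331.4 in KO mice and 434.7, 457.3 and 448 in WT mice, a gap several times wider than either group's spread. The difference was -0.38 (SE 0.085, adjusted p = 0.099), and Echs1 was not called under any alternative run (0.062 to 0.31). Hadh, the short-chain hydroxyacyl-CoA dehydrogenase, read 414.7, 421.3 and 379.5 in KO mice against 511.7, 547.6 and 511.4 in WT mice (difference -0.36, SE 0.086, adjusted p = 0.13). A second Hadh probe set gave -0.31, also without overlap, and a dim one gave 0.10. Acaa2, the matrix thiolase, gave -0.43 (SE 0.12, adjusted p = 0.24), where KO mice read 124.6 to 147.6 and WT mice 168.1 to 207.4. Its other probe sets gave -0.44 with overlap and -0.30 without overlap.

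The auxiliary enzymes that prepare unsaturated chains for oxidation were both lower without overlap. Over all genes, 8.47% had every KO mouse below every WT mouse. Eci1, the enoyl-CoA isomerase, read 129.5, 121.4 and 115.1 in KO mice and 176.9, 164.3 and 160.3 in WT mice. All KO values lay well under the WT values, with a difference of -0.41 (SE 0.12, adjusted p = 0.24). Decr1, the dienoyl-CoA reductase, read 219.2, 167 and 137.6 in KO mice and 223.2, 235.1 and 232.6 in WT mice. KO 1 was close to WT here, and the difference was -0.39 (SE 0.14, adjusted p = 0.40); a dimmer probe set gave -0.20 with overlap.

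Transfer of electrons to ubiquinone was lower by sign in all 3 genes (median -0.20). Etfb, the beta subunit of the electron transfer flavoprotein, read 270.7, 288 and 336 in KO mice and 410.7, 380.5 and 368.7 in WT mice (difference -0.36, SE 0.10, adjusted p = 0.24). Etfa, the alpha subunit, read 266.4 to 284 in KO and 295.6 to 329.8 in WT (difference -0.20, SE 0.095, adjusted p = 0.57). Neither overlapped. Etfdh, the membrane dehydrogenase that hands the electrons to ubiquinone, read 200.3 to 208.6 in KO and 204.6 to 263.9 in WT, with WT 3 inside the KO range (difference -0.19, SE 0.11).

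The 3 genes of ketone body use read lower in every KO mouse than in any WT mouse, by their chosen probe sets. Over all genes, 8.47% had this order. Bdh1, which turns beta-hydroxybutyrate into acetoacetate, read 313.4, 379.9 and 386 in KO mice and 491.9, 428.9 and 416.9 in WT mice (difference -0.30, SE 0.11, adjusted p = 0.37). A dim Bdh1 probe set had the opposite order, 31.4 to 37.4 in KO above 25.9 to 31.3 in WT (0.16, SE 0.20). Oxct1, the transferase that commits ketone bodies to oxidation outside the liver, read 2469.2, 2466.2 and 2461.7 in KO mice and 2836.1, 2724 and 2755.6 in WT mice. The KO mice were nearly identical, and the difference was small, -0.17 (SE 0.062, adjusted p = 0.40). The 3 further Oxct1 probe sets gave -0.25 without overlap, and -0.20 and -0.22 with overlap. Acat1, the mitochondrial thiolase that splits acetoacetyl-CoA, read 646.2 to 795.1 in KO and 820.1 to 892.4 in WT (difference -0.28, SE 0.093, adjusted p = 0.34). Its other probe sets gave -0.26 without overlap and -0.22 with overlap. The per-mouse median of the 3 genes was -0.17, -0.22 and -0.20 in KO and 0.03, -0.02 and -0.04 in WT.

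**Figure D3:**
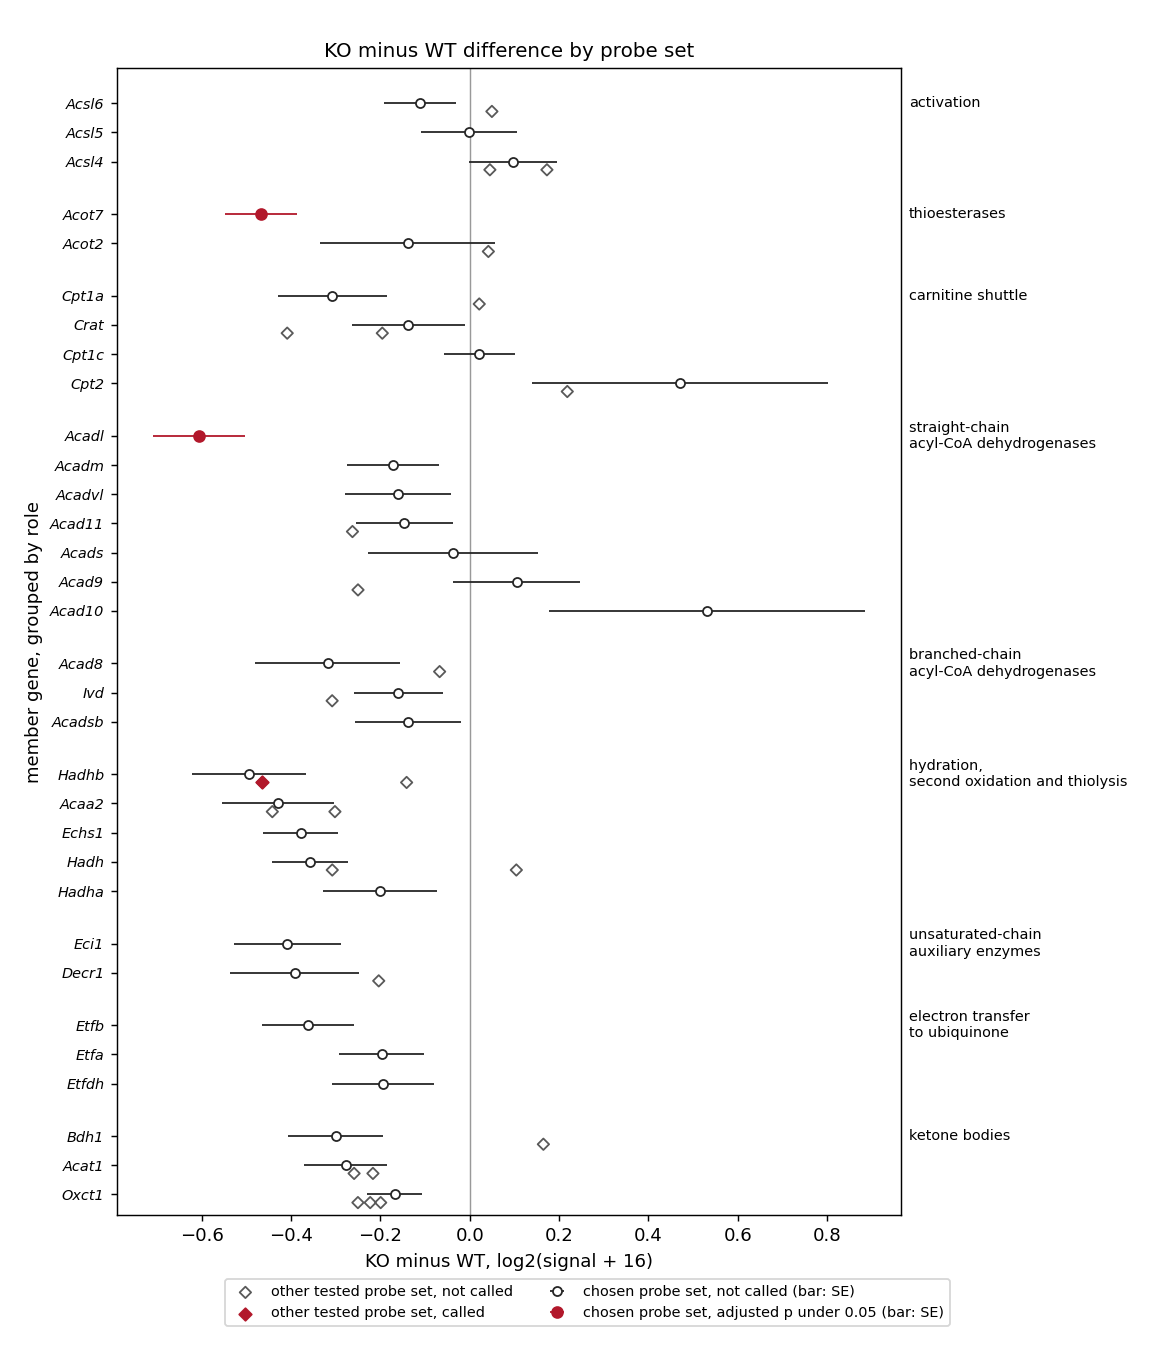
KO minus WT difference on the log2(signal + 16) scale for the chosen probe set of each of the 32 genes (circles, bars are the SE, n = 3 mice per group) and for their other tested probe sets (diamonds), with an adjusted p under 0.05 in red. The called values are Acadl at -0.61, Acot7 at -0.47 and a second Hadhb probe set at -0.46, while Cpt2 and Acad10 lie to the right with wide bars.

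Most further tested probe sets of these genes had the sign of the chosen ones, with 6 exceptions, but fewer separated the groups. Of the 32 chosen, 27 were lower and 16 had every KO mouse below every WT mouse. Of the 30 others, 25 passed the filter, from 20 genes with several probe sets in all. Of these 25, 17 were lower (median -0.20), where 51.1% of all probe sets were, and 5 had every KO mouse below every WT mouse and 1, that of Bdh1, had the reverse; over all probe sets these orders were found in 7.88% and 6.52%. The 6 of opposite sign belong to Cpt1a, Acad9, Hadh, Bdh1, Acsl6 and Acot2. The 5 below the filter, all dim, had the opposite sign too. With the mean of a gene's tested probe sets in place of the chosen one, the differences shrank most for Bdh1 (to -0.07), Cpt1a (to -0.14) and Hadh (to -0.19). The probe sets of 1 gene share its RNA and are not independent measurements. The chosen probe sets of Hadhb, Hadh, Acadsb and Acad10 carry the array's x_at suffix, which marks probes that may also bind other transcripts.

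**Figure D4:**
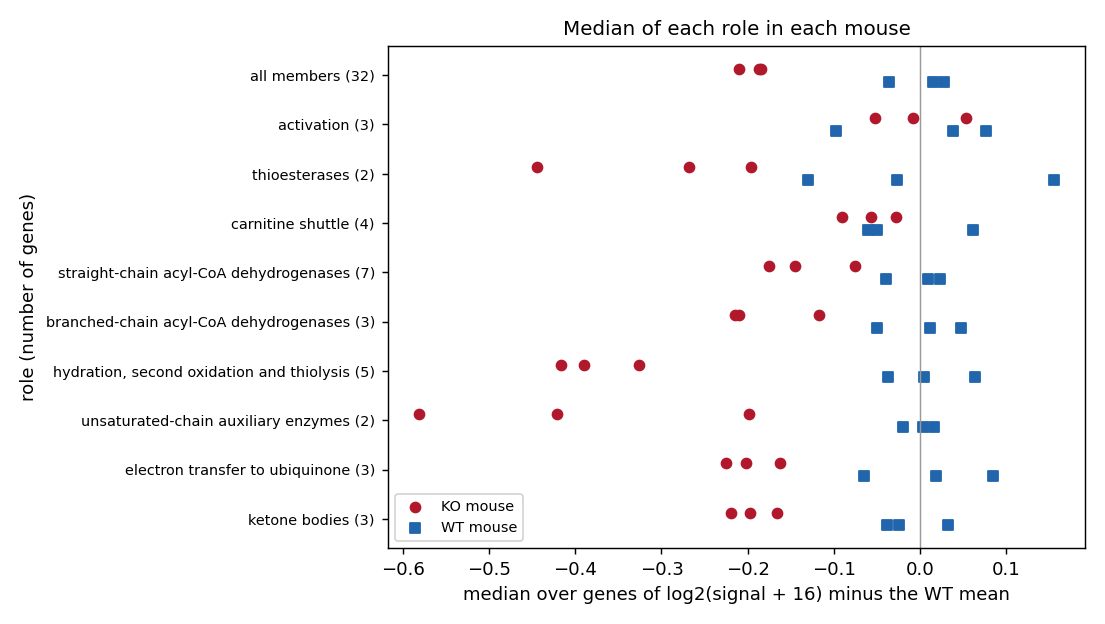
Median over the genes of each role of log2(signal + 16) minus the WT mean, for each KO mouse (red circles) and each WT mouse (blue squares), with the number of genes in brackets. KO and WT mice overlap for activation and the carnitine shuttle and are apart for the other roles, most widely for hydration, second oxidation and thiolysis (-0.42 to -0.33 in KO).

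Set side by side, the 23 genes of oxidation, electron transfer and ketone use had 21 lower by sign, 14 without overlap and a median of -0.20. The 9 genes of activation, thioesterases and the carnitine shuttle had 6 lower, 2 without overlap and a median of -0.11. The difference between these sets of genes was not tested. Over all genes tested, 51.8% were lower by sign and 8.47% had every KO mouse below every WT mouse. Quantile normalization turned the sign of none of the 32 genes, and centring each array on its median turned those of Acads and Acsl5, which leaves 25 of 32 lower, where 40.8% of all genes were lower on that scale.

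Other genes of fatty acid and ketone handling, from a list of 27 of which 24 were tested, were read the same way. A total of 15 were lower and 9 higher (median -0.14), against 51.8% of all genes lower, and 7 had every KO mouse below every WT mouse and none the reverse, against 8.47% of all genes. Limma called none, with 6 at an unadjusted p under 0.05, all lower. Acss1, the mitochondrial synthetase that activates acetate, read 115.1, 124.8 and 112 in KO mice and 165.8, 179.4 and 175.4 in WT mice. The groups were well apart, with a difference of -0.51 (SE 0.12, adjusted p = 0.11). Fabp5, a cytosolic fatty acid binding protein, averaged 2909 ± 117 over KO mice against 3499 ± 135 over WT mice (SD, n = 3), a difference of -0.27 (SE 0.066, adjusted p = 0.15). The carnitine carrier Slc25a20, the transcription factor gene Ppara and the related coactivator Ppargc1b were on the list too and gave 0.13, -0.20 and 0.11, each with overlap.

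With 3 mice a group, a two-sided exact permutation test of any single gene cannot go below p = 0.1, the value reached by each gene without overlap. A p that misses the threshold does not show that a gene was alike in both genotypes.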

How the data were processed

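The deposited intensity values, 1 signal per probe set and array on a linear scale, come from MAS5, per the submitters' processing notes. Its version, target value and settings: not given in the sources used here. Such signals are scaled per array, so differences are relative to the rest of each array. Of 45101 probe sets, 64 controls were left out, 34958 had exactly 1 gene symbol (34956 matched to GRCm38.p6 names), 932 had several and 9211 none. Signals were taken as log2(signal + 16), and only those whose mean exceeded the 40th percentile (a signal of about 26.8) were kept, 27022 in all. An offset understates the change of dim probe sets. KO and WT were compared with limma 3.58.1 in R 4.3.3 (lmFit, eBayes with an intensity trend), adjusted by Benjamini-Hochberg over all 27022, with a threshold of 0.05 and no covariate. The fit was checked on simulated data. With 3 arrays a group, their number limits precision. Replicates are separate mice, per the labels.

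The members, the further lists and the markers were chosen with earlier results of these data known. Named genes are all members, their further probe sets where sign or call differs, Ppargc1a, the called genes of each further list or, without any, the 2 with the smallest p, and called cell type markers; the other genes named, and the neighbour genes, were chosen after their values were seen. Slc25a20, Ppara and Ppargc1b were named for their function. Alternatives were quantile normalization, arrays centred on their median, other offsets and filters, eBayes without trend or robust, the replicate number as a block, averaging the probe sets of a gene, a threshold of 0.1 and each array left out in turn. Counts of members without overlap, or with an unadjusted p under 0.05, were rerun as alternatives added after seeing the data.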

Additional observations from a re-analysis of the deposited data

How the results depend on the processing

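The direction of the pathway did not turn under any alternative run. The count of genes lower by sign stayed between 25 and 28 of those tested, that without overlap between 12 (arrays centred on their median, where 5.61% of all genes had it) and 21 (without WT 3, 3 mice against 2, where 14.8% had it), and that at an unadjusted p under 0.05 between 11 and 15. The median was -0.14 with each array centred on its median and ran from -0.22 to -0.18 without any 1 array. The count of called genes was less stable: 1 with arrays centred on their median and 0 in limma with no filter, no intensity trend or the replicate block, with 14, 12 and 12 genes at an unadjusted p under 0.05. Without any 1 array it ran from 0 to 1, with 0 without KO 2, KO 3 or WT 2. Over all probe sets, 127 were called, 52 with no filter, 25 with no intensity trend, 194 at an adjusted p under 0.1 and 65 to 102 without any 1 array. The replicate numbers showed no pairing of the mice. Deviations from the group means correlated at -0.035 to 0.017 between same-numbered KO and WT mice. In limma the replicate block ended the calls of Acadl (adjusted p = 0.064), Acot7 (0.051) and the second Hadhb probe set (0.080). It gave 100 calls over all probe sets. Signs turned for Cpt1c (-0.0049 to 0.066 without any 1 array), Acads (0.0067 centred, -0.15 to 0.074 without any 1 array), Acsl5 (0.042 centred, -0.10 to 0.057), Acot2 (-0.25 to 0.063) and, with the mean of probe sets, Acad9 (-0.072) and Mccc1 (0.0067). The cause was not tested. Signals near the filter, as for Cpt2 and Acad10, limit what could be seen.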

Other observations

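Branched-chain and odd-chain breakdown, which shares the matrix with fatty acid oxidation and feeds propionyl-CoA into the TCA cycle, was looked at through a list of 17 genes, all of them tested. By sign 14 were lower in KO (median -0.15), against 51.8% of all genes. In 6 every KO mouse lay below every WT mouse, against 8.47% of all genes, and none had the reverse. Limma called none, with 5 at an unadjusted p under 0.05, all lower, against 5.61% of all genes. Mmut, the vitamin B12-dependent methylmalonyl-CoA mutase at the end of the propionate route, read 229.7, 278.7 and 353.4 in KO mice and 413.4, 423.4 and 443.2 in WT mice. All KO mice lay below the WT mice, but KO 3 stood closer to them than the others, and the difference was -0.57 (SE 0.13, adjusted p = 0.11). With the mean of its tested probe sets the difference was -0.30 (adjusted p = 0.35). Without KO 3, whose label names cytoplasmic RNA, Mmut was called (adjusted p = 0.025; 0.025 to 0.37 over all alternatives). Mccc1, a subunit of the leucine pathway's methylcrotonyl-CoA carboxylase, read 236.4 to 253 in KO and 292 to 313.6 in WT (difference -0.30, SE 0.095, adjusted p = 0.30), but the mean of its tested probe sets gave 0.0067, so its direction rests on the chosen probe set.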
